A study of Mus musculus with 6 samples.

Results

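The 10 genes described here are members, feedback regulators and adhesion targets of the NF-κB pathway: Nfkb1, Nfkb2, Rela, Relb, Nfkbia, Nfkbie, Tnfaip3, Birc3, Icam1 and Vcam1. They were taken by gene symbol from the 24346 gene symbols in the expression values, and all 10 were found. RNA was sequenced from 3 samples of parental cells and 3 samples of M8 cells. The parental cells were CT26.mMR1, derived from a colorectal tumor of the mouse, and overexpressed mouse MR1, the molecule that presents small metabolites to mucosal-associated invariant T (MAIT) cells, after retroviral transduction. M8 was a mutant of these cells obtained by treatment with the mutagen N-ethyl-N-nitrosourea (ENU) and picked because it raised the NFAT-GFP signal of the MAIT reporter cell line 6C2 and, among the mutants that did so, expressed more MR1 than the parental cells. By this description of the study both lines carried the MR1 transgene. The sample titles read CT26_cl9 for the parental cells and CT26_cl9_M8 for M8, and do not name MR1. M8 was a single mutant, so what ENU treatment, the picking of 1 mutant and any particular mutation contributed cannot be told apart. The labels do not say that the 3 samples of a line were separate cultures, while the study's own description of this comparison calls them biological replicates. The p-values measure the spread between these samples.

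NF-κB is a family of transcription factors that act as dimers. In resting cells IκB proteins hold the dimers in the cytoplasm, and signals from receptors for cytokines and microbial products lead, through the IKK kinases, to degradation of IκB. In the alternative branch the kinase NIK (Map3k14) leads to processing of the Nfkb2 product and release of dimers with Relb. The released dimers switch on chemokine, survival and adhesion genes and also their own inhibitors, which limits the response.

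In M8, 3 of the 5 subunit genes of the family rose slightly, the inhibitor Nfkbia fell, and the adhesion gene Vcam1 rose slightly. Of the 9 members with enough expression to test, 4 were called higher in M8 (Nfkb1, Nfkb2, Rela and Vcam1), against 21.2% of the 10597 genes tested. Nfkbia was the 1 member called lower, against 16.5% of all genes, and the other 4 were not called. The members called higher were 2 without M8 replicate 2 and 1 without M8 replicate 3, and the members called lower were 2 without parental replicate 1. In TPM, 2 members were called higher and 3 lower, and over all genes 1658 higher and 2209 lower in place of 2250 and 1745. The M8 samples lay entirely above the parental samples for 4 members (24.8% of all genes) and entirely below for 2 members (20.4%), and the 2 directions made up 45.2% of all genes. The median log2 difference between M8 and parental was 0.13 over the 9 members and 0.01 over all genes tested. The 6 members whose groups did not overlap each reached an exact two-sided permutation p = 0.1 on FPKM, the smallest that 3 against 3 samples allow. No member changed by 1.5-fold or more. Calls here are from limma on log2(FPKM + 1) at a Benjamini-Hochberg adjusted p below 0.1, and FPKM is a fragment count scaled to transcript length and library size. A difference in a bulk sample does not tell fewer expressing cells from less RNA per cell.

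Sequencing depth and some cell type markers also differed between the lines. The markers are read in the same contrast as the members, so their differences belong to the lines. Mapped reads, estimated from the smallest steps in FPKM, were about 23700000 to 26800000 in the parental samples and 19400000 to 21900000 in the M8 samples, so depth was lower in every M8 sample. Of 11 colon epithelium markers, 4 (Epcam, Krt19, Cdh1 and Cdx2) were listed at 0 in all 6 samples and 2 (Krt18 and Krt20) averaged 1 FPKM or more, while 6 of 11 fibroblast and smooth muscle markers did, with a summed level of 678 to 721 FPKM in parental and 674 to 706 FPKM in M8. Most of that sum was Col1a2, at 487 ± 15.1 and 467 ± 9.77 FPKM, and single markers moved within it: Pdgfra (log2 difference -0.43, limma adjusted p = 0.00903) and Dcn (-0.38, 0.0245) fell and Pdgfrb rose (0.25, 0.00787). Of the 2 expressed epithelial markers, Krt20 fell as well (-0.50, limma adjusted p = 0.00438), while Krt18 was not called (0.18, limma adjusted p = 0.321). The 11 epithelial markers summed to 39.7 to 56.4 FPKM in parental and 47.5 to 49.3 FPKM in M8. The 12 leukocyte markers summed to 4.20 to 5.56 FPKM in parental and 1.56 to 3.05 FPKM in M8. Cd68 was the only one of them at 1 FPKM or more and fell (-0.96, limma adjusted p = 0.00203), and Cd3e, Ncr1, Adgre1 and Csf1r were at 0 in every sample. The 8 endothelial markers summed to 0.539 to 0.645 FPKM and 0.460 to 0.836 FPKM, with Cdh5 and Emcn at 0. The part of these differences in the results below was not tested.

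**Figure D1:**
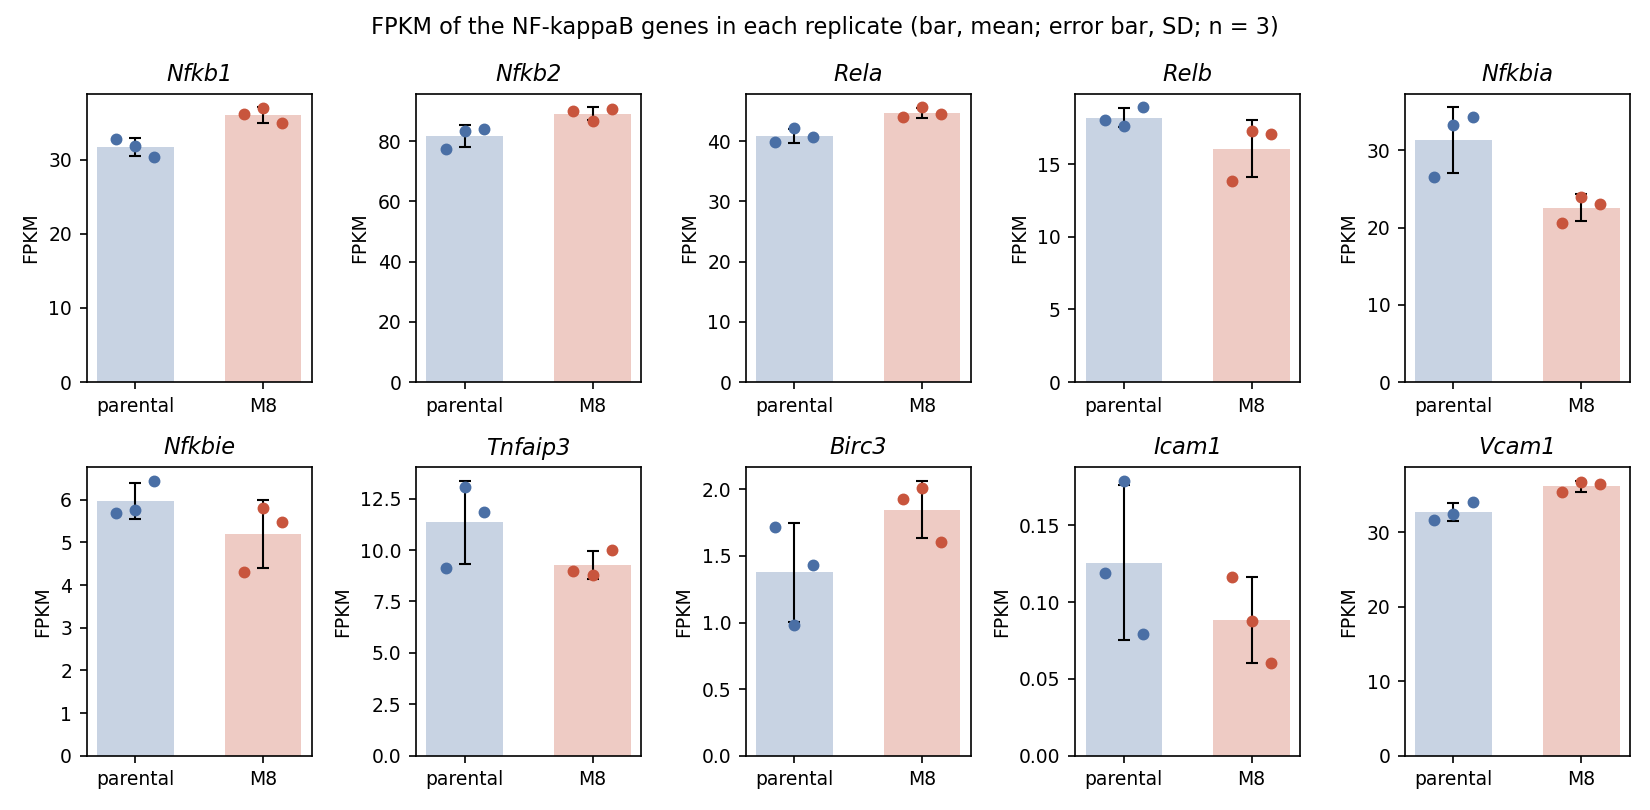
FPKM of the 10 members in the 3 parental and 3 M8 samples, each point 1 sample, with bars for the mean and SD. Nfkb1, Nfkb2, Rela and Vcam1 sit higher in every M8 sample, and Nfkbia and Relb sit lower in every M8 sample.

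The set of RefSeq upstream windows (GRCm38.p6) used here held 7 of the 10 members: Nfkb2, Rela, Nfkbia, Nfkbie, Tnfaip3, Birc3 and Icam1. It held no window for Nfkb1, Relb and Vcam1, which were not searched. NF-κB dimers bind a GC-rich sequence called the κB site. The windows of 250 bases before the RefSeq start used in that set were searched on both strands. The patterns were the kappaB consensus GGGRNWYYCC and the looser GGNNNTTCC. Here R is A or G, Y is C or T, W is A or T and N is any base. These 2 patterns can overlap one another and were chosen after the sequences had been seen. The kappaB consensus matched in 4 of the 7 members (Nfkb2, Nfkbia, Nfkbie and Tnfaip3), against 1010 of 27025 promoters (3.74%), and GGNNNTTCC matched in 5 (these and Icam1), against 4205 (15.6%). Rela and Birc3 held no match in this window. These starts are not always the ends of the gene intervals given below: the Nfkb2 window lies wholly inside the Nfkb2 interval, and the Rela and Birc3 windows run partly into theirs. A match describes the letters and does not show that a factor binds there. The members were listed as members, feedback regulators and targets of NF-κB. Their count beside that of all promoters is therefore a description and not a test. The stretches that hold the matches are shown because they lie just before these starts in 3 inhibitor genes, Icam1 and Nfkb2, and capitals mark the matches: Nfkbia at chr12:55492648-55492897 on the minus strand, Nfkbie at chr17:45555450-45555699 and Icam1 at chr9:21015690-21015939 on the plus strand, Tnfaip3 at chr10:19015411-19015547 on the minus strand, and Nfkb2 at chr19:46304692-46304713 and chr19:46304719-46304736 on the plus strand.
Nfkbia: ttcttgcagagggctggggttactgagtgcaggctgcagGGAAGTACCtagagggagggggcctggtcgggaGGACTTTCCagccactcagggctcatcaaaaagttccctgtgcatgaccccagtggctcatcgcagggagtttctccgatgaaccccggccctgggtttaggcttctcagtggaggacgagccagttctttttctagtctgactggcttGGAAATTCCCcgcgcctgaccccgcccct
Nfkbie: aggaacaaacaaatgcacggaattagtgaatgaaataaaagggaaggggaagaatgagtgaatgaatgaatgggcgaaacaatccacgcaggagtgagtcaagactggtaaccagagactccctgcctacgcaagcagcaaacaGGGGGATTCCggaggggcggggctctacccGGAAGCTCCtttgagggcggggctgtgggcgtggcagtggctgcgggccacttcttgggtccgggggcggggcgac
Icam1: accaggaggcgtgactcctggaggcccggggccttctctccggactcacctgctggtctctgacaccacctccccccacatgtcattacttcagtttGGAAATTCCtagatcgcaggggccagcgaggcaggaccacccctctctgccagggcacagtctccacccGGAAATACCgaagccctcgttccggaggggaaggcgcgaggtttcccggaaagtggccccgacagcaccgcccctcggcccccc
Tnfaip3: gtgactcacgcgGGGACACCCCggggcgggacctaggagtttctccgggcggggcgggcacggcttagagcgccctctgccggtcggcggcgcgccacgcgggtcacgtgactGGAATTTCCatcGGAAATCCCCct
Nfkb2, farther: cgtcacGGGAATTCCCCccctc
Nfkb2, nearer: gccgaaaGGGGCTTTCCc

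Among the subunits, Nfkb1 (3:135584655-135691969, GRCm38.p6, where a lncRNA gene Gm46827 overlaps it) encodes the precursor of the classical DNA-binding subunit that pairs with Rela. Its FPKM was 32.8, 31.9 and 30.3 in the parental samples and 36.1, 37.0 and 34.9 in the M8 samples. Every M8 sample lay above every parental sample, the means being 31.7 ± 1.25 and 36.0 ± 1.06 (SD, n = 3 here and for every mean below). The log2 difference was 0.18 (SE 0.046, 95% interval 0.08 to 0.28, limma adjusted p = 0.0193), or 13.6% of the parental level.

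Nfkb2 (19:46300994-46312400), the precursor gene of the alternative branch and the most abundant member, had 77.5, 83.3 and 84.2 FPKM in parental samples and 90.2, 86.7 and 90.6 FPKM in M8 samples. The ranges did not overlap. The log2 difference was 0.13 (SE 0.044, interval 0.03 to 0.22, limma adjusted p = 0.0617), 9.14% of the parental level. The call was lost without M8 replicate 1 (limma adjusted p = 0.167), M8 replicate 3 (0.160) or parental replicate 1 (0.136), under quantile normalization (log2 difference 0.03, limma adjusted p = 0.646), in TPM (0.125), with upper-quartile scaling (0.112) and without the variance trend (0.108). Reads may also come from the overlapping genes Psd and 4833438C02Rik.

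Rela (19:5637442-5648134) encodes the main activating subunit of the classical branch. Its level was 39.8, 42.1 and 40.7 FPKM in parental and 43.9, 45.6 and 44.5 FPKM in M8, with every M8 sample above every parental sample. It rose by 0.13 on the log2 scale (SE 0.041, interval 0.03 to 0.22, limma adjusted p = 0.0490). This call too was lost without M8 replicate 2 (limma adjusted p = 0.153), M8 replicate 3 (0.102) or parental replicate 1 (0.102). It was also lost in TPM (log2 difference 0.09, limma adjusted p = 0.149) and with quantile normalization (log2 difference 0.06, limma adjusted p = 0.320).

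Relb (7:19606217-19629438), the activating partner in the alternative branch, was the subunit that went the other way. Its values were 18.04, 17.6 and 18.9 FPKM in parental and 13.8, 17.3 and 17.1 FPKM in M8. All M8 samples were below all parental samples, with M8 replicate 1 farthest. The log2 difference of -0.18 (SE 0.080, interval -0.35 to 0.0029) did not pass (limma adjusted p = 0.128). Without M8 replicate 1 it shrank to -0.08 (limma adjusted p = 0.373), while in TPM (0.0802) and with upper-quartile scaling (0.0920) it passed. Within a sample, the log2 ratio of Relb to Rela was -1.17 ± 0.08 in parental and -1.48 ± 0.16 in M8, and the values did not overlap (exact two-sided permutation p = 0.1, the smallest that 3 against 3 allows, Benjamini-Hochberg adjusted over 6 ratios 0.300).

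The ratio of Nfkb2 to Nfkb1, which sets the 2 precursors side by side, was 1.37 ± 0.12 and 1.31 ± 0.07 on the log2 scale and overlapped (exact p = 0.4, adjusted 0.400). The ratio of Nfkb1 to Rela was -0.37 ± 0.08 and -0.31 ± 0.03 and also overlapped (exact p = 0.4, adjusted 0.400). Of the other family subunit and the remaining IκB proteins and brakes, 13 of 15 could be tested, and 2 fell and 0 rose, with a median log2 difference of -0.06. Of all genes tested, 16.5% were called lower and 21.2% higher, and 15.4% of this list were called against 37.7% of all. The subunit gene Rel was at 1.24 ± 0.382 and 1.36 ± 0.238 FPKM and was not called (limma adjusted p = 0.710). In TPM and with upper-quartile scaling 5 of the 13 were called lower, and 2209 and 2154 of all genes in place of 1745.

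**Figure D2:**
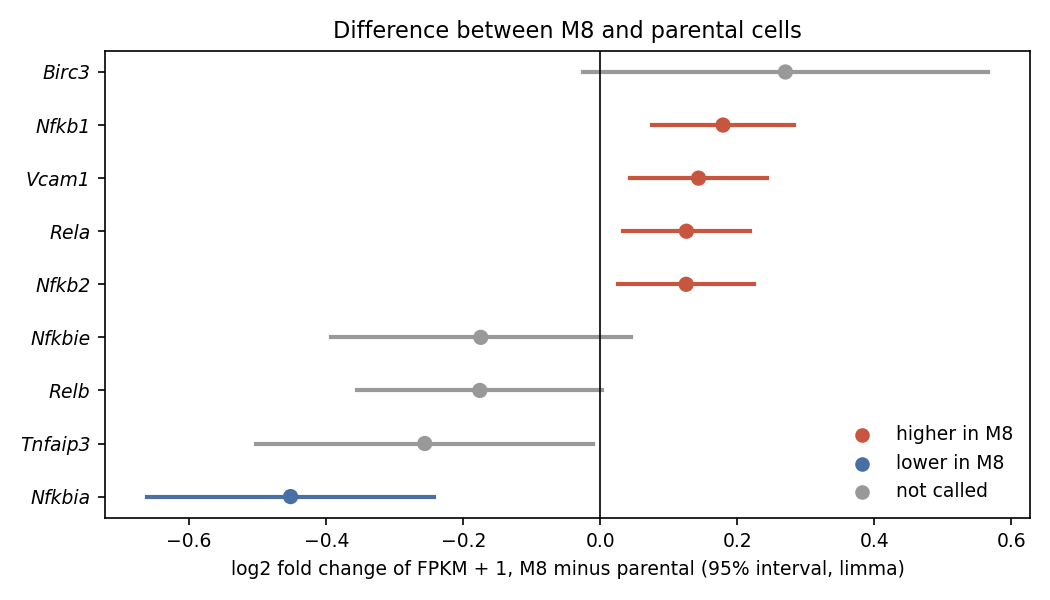
log2 difference in FPKM + 1 between M8 and parental for the 9 tested members, with 95% intervals. The interval of Nfkbia, -0.66 to -0.24, lies below 0, and that of Nfkb1 lies above 0.

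Nfkbia (12:55489409-55492647) encodes IκBα, the inhibitor that NF-κB switches on and that holds Rela-containing dimers. It was 26.5, 33.3 and 34.3 FPKM in the parental samples and 20.6, 23.99 and 23.1 FPKM in the M8 samples. Its highest M8 value lay below its lowest parental value, although parental replicate 1 was well below the other parental samples. The mean fell by 28.1%, from 31.3 ± 4.23 to 22.6 ± 1.75 FPKM, a log2 difference of -0.45 (SE 0.093, interval -0.66 to -0.24, limma adjusted p = 0.00736). Nfkbia kept the call whichever replicate was left out, at log2 differences of -0.56 to -0.38.

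Nfkbie (17:45555700-45563169), an IκB protein of the same kind, was 5.68, 5.75 and 6.45 FPKM in parental and 4.31, 5.80 and 5.48 FPKM in M8. The groups overlapped, and the log2 difference of -0.17 (SE 0.098, interval -0.39 to 0.04) did not pass (limma adjusted p = 0.209). Without M8 replicate 1 it was -0.07 (limma adjusted p = 0.597). The log2 ratio of Nfkbie to Nfkbia was -2.39 ± 0.16 and -2.13 ± 0.11, and the groups overlapped (exact p = 0.2, adjusted 0.400). With a pseudocount of 1, or without parental replicate 1, the exact p was 0.1 at differences of 0.28 and 0.35.

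Tnfaip3 (10:19000910-19015410) encodes a deubiquitinase that shuts down signalling from the receptors. Its values were 9.13, 13.1 and 11.9 FPKM in parental and 9.002, 8.76 and 10.02 FPKM in M8. Parental replicate 1 lay among the M8 values and the other parental samples above all of them. The log2 difference was -0.26 (SE 0.11, interval -0.50 to -0.01), short of the threshold (limma adjusted p = 0.109), and it passed without parental replicate 1 (log2 difference -0.39, limma adjusted p = 0.00746), in TPM (0.0599), with upper-quartile scaling (0.0803) and with a filter at 5 FPKM (0.0970). Without parental replicate 2 it shrank to -0.16 (limma adjusted p = 0.320).

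Birc3 (9:7847468-7873205) encodes a ubiquitin ligase of the receptor complexes and a target of NF-κB. It was expressed weakly, at 1.72, 0.979 and 1.43 FPKM in parental and 1.93, 2.01 and 1.60 FPKM in M8, from about 63 to 117 reads a sample. The groups overlapped, and the log2 difference of 0.27 (SE 0.13, interval -0.03 to 0.57) was not called (limma adjusted p = 0.153). In mean FPKM the difference was 34.2% of the parental level. With a pseudocount of 0.1 the log2 difference was 0.43 and was not called either (limma adjusted p = 0.158). The difference passed without parental replicate 1 (0.37, limma adjusted p = 0.0676) and with quantile normalization (0.36, limma adjusted p = 0.0688). It was 0.14 without parental replicate 2 (limma adjusted p = 0.423). The relative of Birc3, Birc2, a ligase of the same complexes, fell from 7.85 ± 0.622 to 6.55 ± 0.286 FPKM (log2 difference -0.23, limma adjusted p = 0.0366). The log2 ratio of Birc3 to Birc2 went from -2.55 ± 0.39 to -1.83 ± 0.22 and did not overlap (exact p = 0.1, adjusted 0.300).

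Vcam1 (3:116110020-116129688) encodes a cell-surface adhesion molecule that leukocyte integrins bind. It was 31.6, 32.4 and 34.0 FPKM in parental and 35.3, 36.7 and 36.5 FPKM in M8. The groups were separate, and the log2 difference was 0.14 (SE 0.044, interval 0.04 to 0.24, limma adjusted p = 0.0388), 10.7% of the parental level. The call was lost without M8 replicate 2 (limma adjusted p = 0.120) or M8 replicate 3 (0.103), and with quantile normalization (log2 difference 0.09, limma adjusted p = 0.143).

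Icam1 (9:21015940-21028814), the other adhesion molecule of this class, was nearly silent. Its FPKM was 0.119, 0.179 and 0.0792 in parental and 0.117, 0.0881 and 0.0603 in M8, below the 1 FPKM filter, and the groups overlapped (exact two-sided permutation p = 0.4). By the steps of FPKM these values were about 22 reads in the parental samples and 13 in the M8 samples in all, from about 75500000 and 62500000 reads, or 0.291 RPM (reads relative to all mapped reads; exact Poisson 95% interval 0.182 to 0.441) and 0.208 RPM (0.111 to 0.356). These read numbers are reconstructed, up to 0.07 reads from whole, and the intervals, which cover counting error only, are a description of the depth and not a test. Vcam1 exceeded Icam1 by a log2 ratio of 8.10 ± 0.62 in parental and 8.73 ± 0.50 in M8 (overlapping, exact p = 0.3, adjusted 0.400). The difference of 0.63 ranged from 0.33 without parental replicate 2 to 0.95 without parental replicate 3, with 0.37 without M8 replicate 3, and was 0.19 with a pseudocount of 1 (exact p = 0.1).

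**Figure D3:**
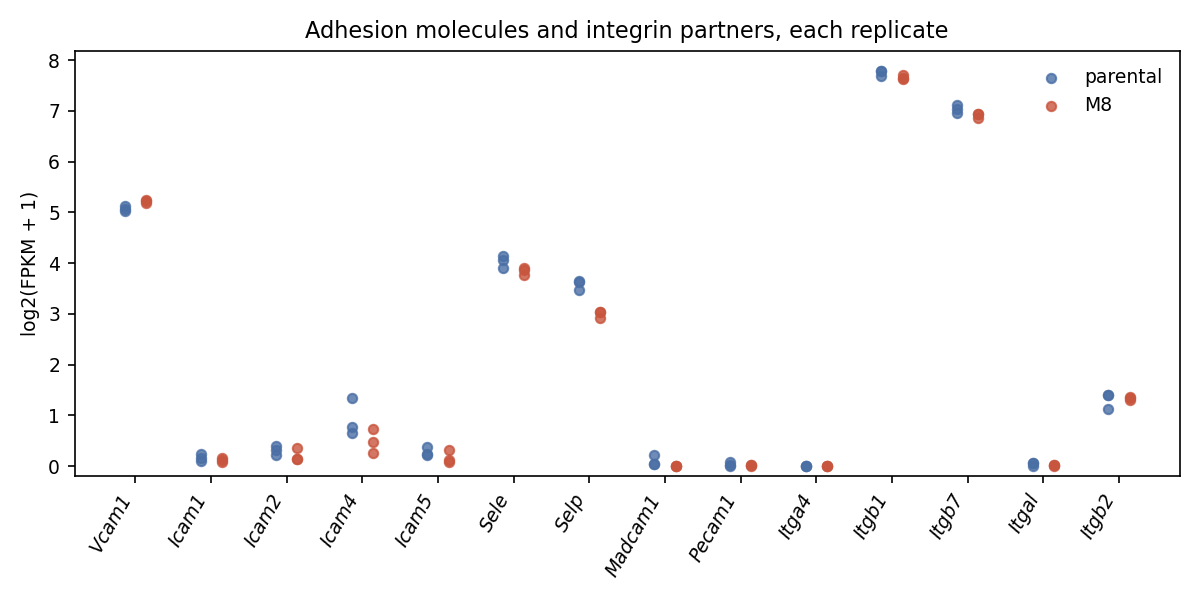
Level of the adhesion molecules and their integrin partners as log2(FPKM + 1), each point 1 replicate of parental or M8. Vcam1 lies far above Icam1 in all 6 samples, and Itga4 lies at 0.

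Ordered by FPKM, which is per length, the members ran Nfkb2, Rela, Vcam1, Nfkb1, Nfkbia, Relb, Tnfaip3, Nfkbie, Birc3 and Icam1 in both lines. In parental, the ranges of Vcam1 and Nfkb1, and of Nfkb1 and Nfkbia, overlapped, so the order of those neighbours is not settled beyond the spread between samples. In M8 only Vcam1 and Nfkb1 overlapped.

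Around the members, 129 pathway genes were considered in 6 lists: 128 had a row, 81 were tested, and 47 lay below the filter, 10 of them listed at 0 in every sample. Of the 81, 10 were called higher, against 21.2% of all genes tested, and 26 lower, against 16.5% (44.4% called in either direction, against 37.7%). Without M8 replicate 1, 17 of them and 1142 of all genes were called lower, in place of 26 and 1745. The 81 had a median log2 difference of -0.04. The lists follow in the order of the pathway, and their counts are to be read beside these shares of all genes.

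Ligands were almost absent. Of 12, 1 could be tested, Tnfsf12, whose product binds the receptor Tnfrsf12a, at 21.5 ± 1.72 and 21.6 ± 0.875 FPKM (log2 difference 0.01, limma adjusted p = 0.941). Il1b, Tnfsf14 and Cd40lg were at 0 in every sample.

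Of 16 receptors, 10 were tested, and 3 rose and 3 fell, with a median log2 difference of 0.03. Il1rl1, the receptor of the alarmin Il33, rose from 58.0 ± 6.52 to 106 ± 2.24 FPKM (log2 difference 0.87, SE 0.071, limma adjusted p = 0.000163). Ltbr, the lymphotoxin beta receptor, which feeds the alternative branch, rose from 65.3 ± 0.763 to 77.3 ± 2.31 FPKM (0.24, limma adjusted p = 0.00268). The RNA sensor Tlr3 also rose (0.25, limma adjusted p = 0.0183). Tlr4, the sensor of bacterial lipopolysaccharide, fell from 10.7 ± 0.437 to 8.75 ± 0.157 FPKM (-0.26, limma adjusted p = 0.00705), as did Tlr6 (-0.36, limma adjusted p = 0.0294) and the TNF receptor Tnfrsf1b (-0.17, limma adjusted p = 0.0394). Tnfrsf12a was the most abundant receptor, at 301 ± 25.8 and 324 ± 11.7 FPKM (0.11, limma adjusted p = 0.187).

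All 27 adaptors and kinases were tested, with 4 higher and 7 lower and a median log2 difference of -0.003. Myd88, the adaptor of most Toll-like receptors, rose from 19.6 ± 1.26 to 24.2 ± 1.42 FPKM (log2 difference 0.29, limma adjusted p = 0.00766), and Traf2, an adaptor of TNF receptors, rose by 0.25 (limma adjusted p = 0.00814). Rbck1, a subunit of the linear ubiquitin ligase and the most abundant gene of the list, rose from 67.4 ± 3.12 to 76.4 ± 1.78 FPKM (0.18, limma adjusted p = 0.0171). In the other direction, Ikbkg, the scaffold subunit of IKK, fell from 9.26 ± 0.414 to 7.67 ± 0.166 FPKM (-0.24, limma adjusted p = 0.0128), and Ikbke (-0.28, limma adjusted p = 0.0244) and Traf5 (-0.32, limma adjusted p = 0.0595) fell too. Map3k14, the kinase of the alternative branch downstream of Ltbr, fell from 5.67 ± 0.433 to 4.78 ± 0.188 FPKM (-0.20, limma adjusted p = 0.0599). Only 3 of this list were called lower without parental replicate 2 or M8 replicate 2 and with quantile normalization, and 4 without M8 replicate 1. Quantile normalization also took the genes of this list called higher from 4 to 2.

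Among the other subunit, IκB proteins and brakes, Tnip1, a partner of the Tnfaip3 product, fell from 13.9 ± 0.624 to 9.96 ± 0.486 FPKM (log2 difference -0.44, limma adjusted p = 0.00101). The nuclear IκB protein Nfkbiz fell by 0.21 on the log2 scale (limma adjusted p = 0.0367). The most abundant, Tax1bp1, was at 83.0 ± 1.19 and 79.4 ± 0.9002 FPKM (-0.06, limma adjusted p = 0.221).

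**Figure D4:**
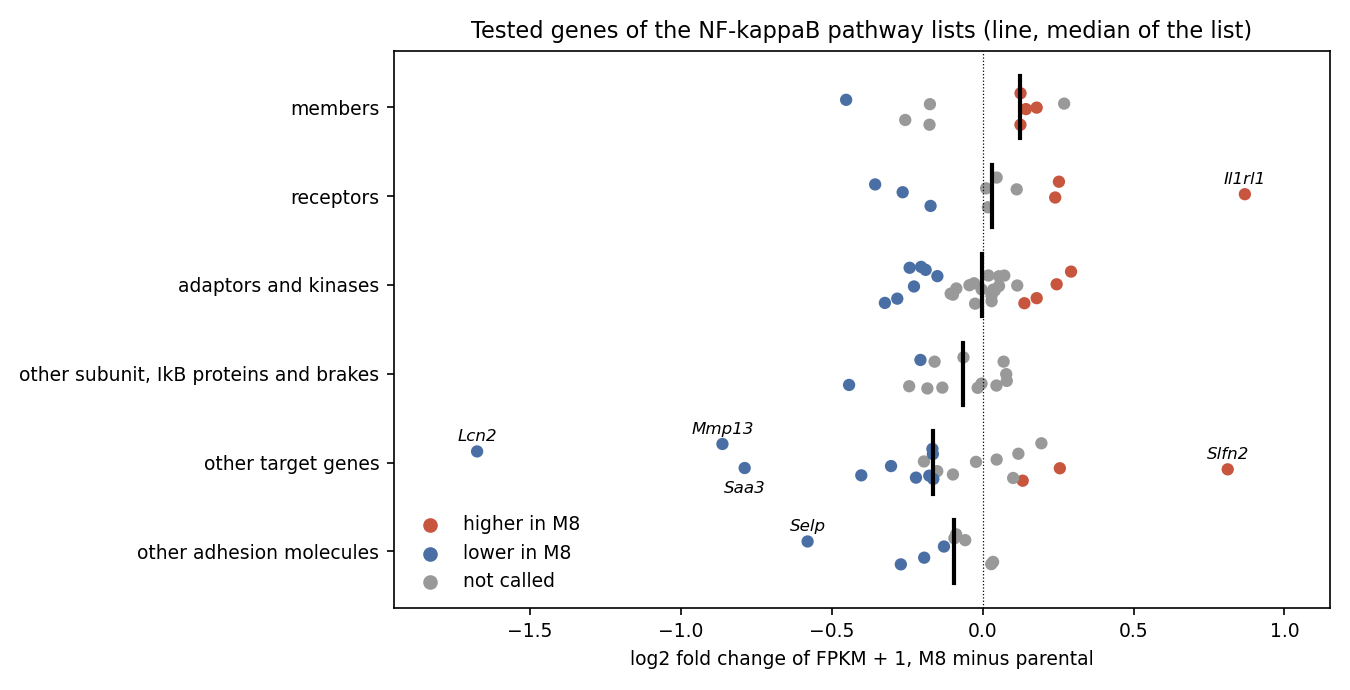
log2 difference between M8 and parental of the tested members and of the tested genes in 5 pathway lists, each point 1 gene and each line a list's median (the single tested ligand is not drawn). Lcn2 lies lowest at -1.67 and Il1rl1 highest at 0.87.

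Of 35 other target genes, 21 were tested, and 10 fell and 3 rose, with a median of -0.16. Lcn2, a secreted iron-siderophore carrier, fell from 46.2 ± 9.83 to 13.8 ± 2.73 FPKM (log2 difference -1.67, limma adjusted p = 0.000206). The collagenase Mmp13 fell from 4.399 ± 0.639 to 1.96 ± 0.0891 FPKM (-0.86, limma adjusted p = 0.000563). Saa3, an acute-phase protein, fell from 4.18 ± 1.004 to 2.14 ± 1.39 FPKM (-0.79, limma adjusted p = 0.0483), but its groups overlapped. Slfn2 rose from 5.61 ± 0.371 to 10.6 ± 0.608 FPKM (0.81, limma adjusted p = 0.000163), the growth factor gene Csf1, the most abundant of these targets, from 159 ± 9.45 to 190 ± 4.80 FPKM (0.26, limma adjusted p = 0.00509), and the survival gene Bcl2l1 rose slightly (0.13, limma adjusted p = 0.0549).

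Of the other adhesion genes, 9 of 24 were tested and 4 fell, with a median log2 difference of -0.09. The selectin Selp fell from 10.97 ± 0.803 to 7.01 ± 0.398 FPKM (log2 difference -0.58, SE 0.069, limma adjusted p = 0.000693), and Sele, another selectin, fell by 0.19 (limma adjusted p = 0.0593). Nectin1 fell by 0.27 (limma adjusted p = 0.0739). Itgb7, an integrin chain that in leukocytes pairs with Itga4 to bind Vcam1, fell from 131 ± 7.46 to 120 ± 3.67 FPKM (-0.13, limma adjusted p = 0.0782), while Itga4 was at 0 in every sample. Itgb1, the most abundant adhesion gene of the list, was at 215 ± 8.74 and 202 ± 6.69 FPKM (-0.09, limma adjusted p = 0.143). The number of genes in this list called lower ranged from 1 to 6 when 1 replicate was left out, 1 being without M8 replicate 3, parental replicate 2 or parental replicate 3, and 2 without M8 replicate 1 or M8 replicate 2.

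**Figure D5:**
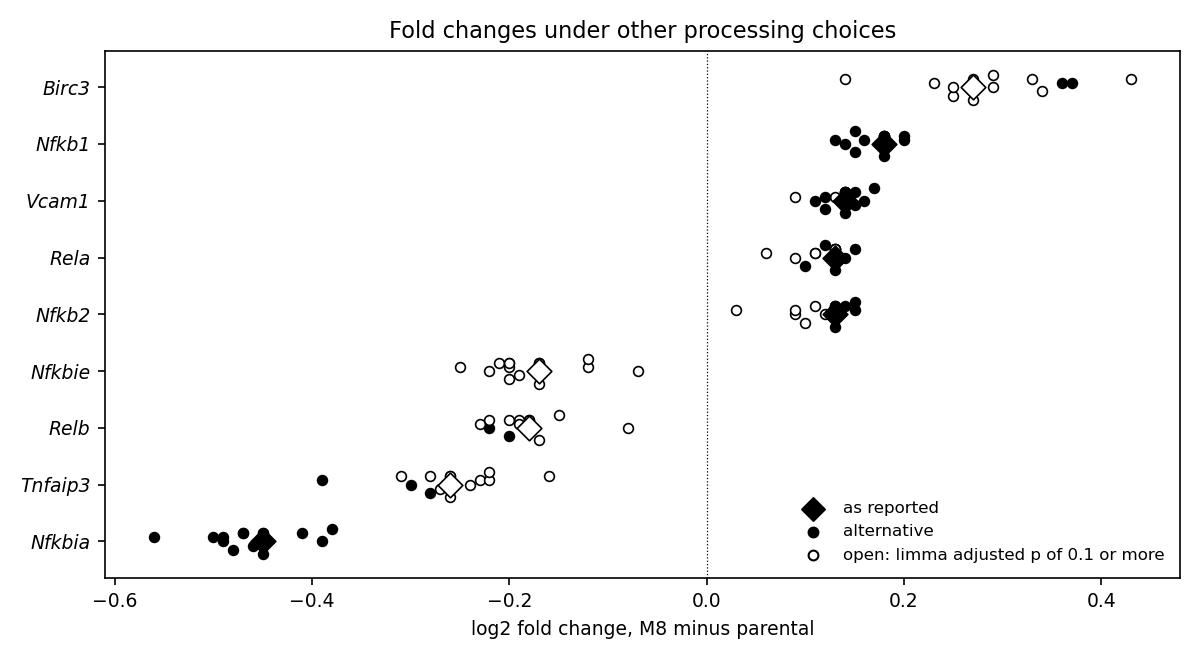
log2 difference between M8 and parental of the 9 tested members as reported (diamonds) and under other processing choices (circles), filled where the limma adjusted p is below 0.1. Nfkbia stays between -0.56 and -0.38 in every setting shown.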

How the data were processed

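RNA from 3 parental and 3 M8 samples was measured by RNA sequencing. The authors deposited 1 file of FPKM values (fragment counts scaled to transcript length and library size) per sample. The submitters' processing notes name TopHat2 2.1.1, Bowtie2 2.2.8, SAMtools 0.1.18 and Cuffdiff 2.2.1. The annotation behind the values is not given in the sources used here.

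Genes with a mean of at least 1 FPKM over the 6 samples (10597 of 24346 symbols) were tested on log2(FPKM + 1) with limma 3.58.1 in R 4.3.3 (empirical Bayes with a mean-variance trend), Benjamini-Hochberg adjusted over all of them and called at an adjusted p below 0.1. That threshold is the study's, whose own test ran on read counts and not on FPKM. Fold changes are on the log2(FPKM + 1) scale, which understates those of weakly expressed genes. Ratios and single genes were compared by exact two-sided permutation tests, whose smallest p is 0.1. Tables and figures were made in Python 3.11.15 with pandas 2.3.3, numpy 2.4.6 and matplotlib 3.10.9.

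Depth was estimated from the smallest steps in FPKM of low genes with 1 transcript, for an assumed fragment length of 200 bases. In 673 to 859 such genes per sample, 61.1 to 63.3% of values came out whole within 0.03 reads, too few for a count test, and the estimates are approximate. In these reconstructed reads, replicates differed by more than sampling noise. The chi-square per gene was 7.58 to 11.6 between parental samples and 3.39 to 4.96 between M8 samples. The limma fit used 1 variance per gene for both lines. All replicates were kept as separate samples.

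The named genes were the 10 members and, from each of 6 pathway lists, up to 3 called genes with the largest change in each direction and the most abundant gene. Birc2, Itgb7, Rel, Map3k14 and the genes at 0 were named after their values were seen. The members and lists were chosen with earlier results of these data known. Of 129 listed genes 128 had a row, 2 of them through synonyms. The 18 alternatives covered pseudocounts, filters, thresholds, scalings, the trend, a replicate block and leaving out each replicate.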

Additional observations from a re-analysis of the deposited data

How the results depend on the processing

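No tested member changed direction under its alternatives, 18 for each and 17 for Birc3, which the filter at 5 FPKM removed. The thresholds, filters, variance trend and replicate block leave the log2 difference of a member unchanged, so they could not turn it. The block leaves the ratio differences unchanged too. No ratio changed direction under the 8 run for it (a pseudocount of 1, the replicate block and leaving out each replicate), though Nfkb2 to Nfkb1 came to about 0 without parental replicate 3. Icam1 was tested only without the filter on low values (-0.05, limma adjusted p = 0.480). Nfkb1 (log2 difference 0.13 to 0.20) and Nfkbia (-0.56 to -0.38) kept their calls in all but the 1.5-fold threshold, which left 42 genes higher and 74 lower of all genes, 2 and 3 of the pathway lists, and 0 members in either direction. The calls of Nfkb2, Rela and Vcam1 were lost in 9, 6 and 4 alternatives, and Relb, Tnfaip3 and Birc3 gained a call in 3, 5 and 2. The scaling moved the balance over all genes from 2250 higher and 1745 lower to 1658 and 2209 in TPM and 1848 and 2154 with upper-quartile scaling, and the members called higher from 4 to 2 in TPM and 2 with quantile normalization. The members called lower went from 1 to 3 in TPM, 3 with upper-quartile scaling and 2 with a filter at 5 FPKM. The median log2 difference over all genes tested went from 0.007 to -0.028 in TPM and -0.018 with upper-quartile scaling. FPKM summed to 593635 in parental replicate 1 and to 614741 to 630264 in the other samples. The part of these in the calls was not tested. Without 1 replicate at a time, the counts were 1591 to 2100 genes higher and 1142 to 1681 lower, 1 to 4 members higher and 1 to 2 lower, and 8 to 12 pathway genes higher and 17 to 26 lower. Genes lower were fewest without M8 replicate 1 (1142), as were pathway genes lower (17). Members higher were 2 without M8 replicate 2 and 1 without M8 replicate 3, and members lower were 2 without parental replicate 1. Among the members, Icam1 and Birc3 rested on the fewest estimated reads.

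The sample titles do not say that replicate numbers pair the samples. Deviations of same-numbered samples correlated at 0.10, -0.11 and -0.03, and parental replicate 2 correlated best with M8 replicate 3 (0.18). Such weak correlations over all genes cannot settle whether samples were paired. With the block the SE of Nfkbia was 0.054 in place of 0.093 (limma adjusted p = 0.00173). With a replicate block, 3 members were called lower in place of 1 (Relb at a limma adjusted p of 0.0971 and Tnfaip3 at 0.0735 were added), 4 were again called higher, and 2171 genes were higher and 1688 lower.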
